A study of Mus musculus with 6 samples.

Results

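The genes for matrix metalloproteinases (MMPs), ADAMTS proteases and the tissue inhibitors of metalloproteinases (TIMPs) were examined in tumors of MCA205, a mouse fibrosarcoma cell line that grows when transplanted into C57BL/6 mice. Members were all protein-coding genes of the deposited table with the symbol Mmp, Adamts or Timp followed by a number, which gave 45 of 54309 gene identifiers: 22 MMP, 19 ADAMTS and 4 TIMP genes. Bulk RNA was sequenced from 3 Control and 3 FF-10101 tumors, described by the submitters as biological replicates. Each tumor was grown under the skin of the right flank of a female C57BL/6J mouse, 7 weeks old at inoculation (day 0), and was taken on day 8. Control mice received MilliQ water, and the other mice received FF-10101, an inhibitor of the receptor tyrosine kinases FLT3, KIT and CSF1R, at 0.1 mg/mL in the water from day 1 to day 8. The model is 1 cell line at 1 site in hosts with their own immune cells and stroma, and each value is a sum over all cells of the tissue, so that fewer cells of a type and less RNA per cell cannot be told apart.

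MMPs are zinc-dependent proteases that are secreted, or anchored in the cell membrane, as inactive proenzymes and that cut collagens, gelatin, elastin, laminins and many signaling proteins once the propeptide is removed. ADAMTS proteases are secreted relatives with thrombospondin repeats, and they trim procollagens and cleave proteoglycans such as versican. TIMPs block the active site of MMPs, and TIMP3, which stays bound to the matrix, also blocks several ADAMTS proteases. In tumors these genes are used by malignant cells, fibroblasts, macrophages, neutrophils and vessels, and the enzymes are known for the turnover of matrix during growth, invasion and vessel formation. RNA levels do not measure the activity of the enzymes, which also depends on activation and inhibition.

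The deposited log2 values were turned back into reads, and a normalized count is a gene's reads over the size factor of its tumor. Total reads were 9143806 to 9643535 in the Control tumors and 9277019 to 13258258 in the FF-10101 tumors. Groups were compared with limma on log2(normalized count + 1) over 13963 genes with a mean of at least 10, and p values were adjusted over all of them (Benjamini-Hochberg). Fold changes on this scale come out too small where reads are few. Control tumor 1 stood apart from the other Control tumors: leaving it out moved the genes past an adjusted p of 0.05 from 6 to 3051. Its array weight in limma was 0.139, the lowest of the 6 tumors. The other weights ran from 0.406 (FF-10101 tumor 1) to 8.08 (FF-10101 tumor 2). Results are therefore given with it and, where it matters, without it. All 9 mesenchymal or fibrosarcoma markers (*Vim*, *Col1a1* and others) were measured above the minimum, as the label of the tissue implies.

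Most of the matrix protease and inhibitor genes had a higher level in the FF-10101 tumors, but none passed the test across all genes. Of the 45 members, 33 reached the minimum and were tested, namely 17 MMP, 13 ADAMTS and 3 TIMP genes. The difference was above 0 in 28 and below 0 in 5 of them, while 51.9% of all genes tested lay above 0. With limma, 0 of 33 passed an adjusted p of 0.05 (the lowest was 0.229), a threshold passed by 0.043% of all genes tested. At an unadjusted p under 0.05 there were 15 members, all higher (8.77% of all genes were higher and 7.49% lower by that rule), and limma-voom on the reads also called 0 at the adjusted threshold, with 16 at the unadjusted threshold. The 15 members at the unadjusted threshold became 25 without Control tumor 1, but 10 without Control tumor 2 and 9 when either Control tumor 3 or FF-10101 tumor 3 was left out.

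Every FF-10101 tumor lay above every Control tumor for 14 of 33 members, against 10.9% of all genes tested, and every one lay below for 0, against 9.37%. For each of the 14, the exact two-sided permutation test gave p = 0.1, the smallest value that 3 tumors against 3 allow. Groups that do not overlap always give this value, so it adds nothing to the count. A log2 fold change (FF-10101 over Control) of at least 1 was found for 12 members (6.61% of all genes) and of at most -1 for 0 (1.98%). The median log2 fold change was 0.76 over the 33 members and 0.020 over all genes, with medians of 0.85 for the MMP, 0.58 for the ADAMTS and 0.56 for the TIMP genes. Of the tested members, *Mmp16* and *Mmp27* reached the minimum only through their level in the FF-10101 group. Both are counted among the 14, among the 12 and among the 15 at the unadjusted threshold.

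**Figure D1:**
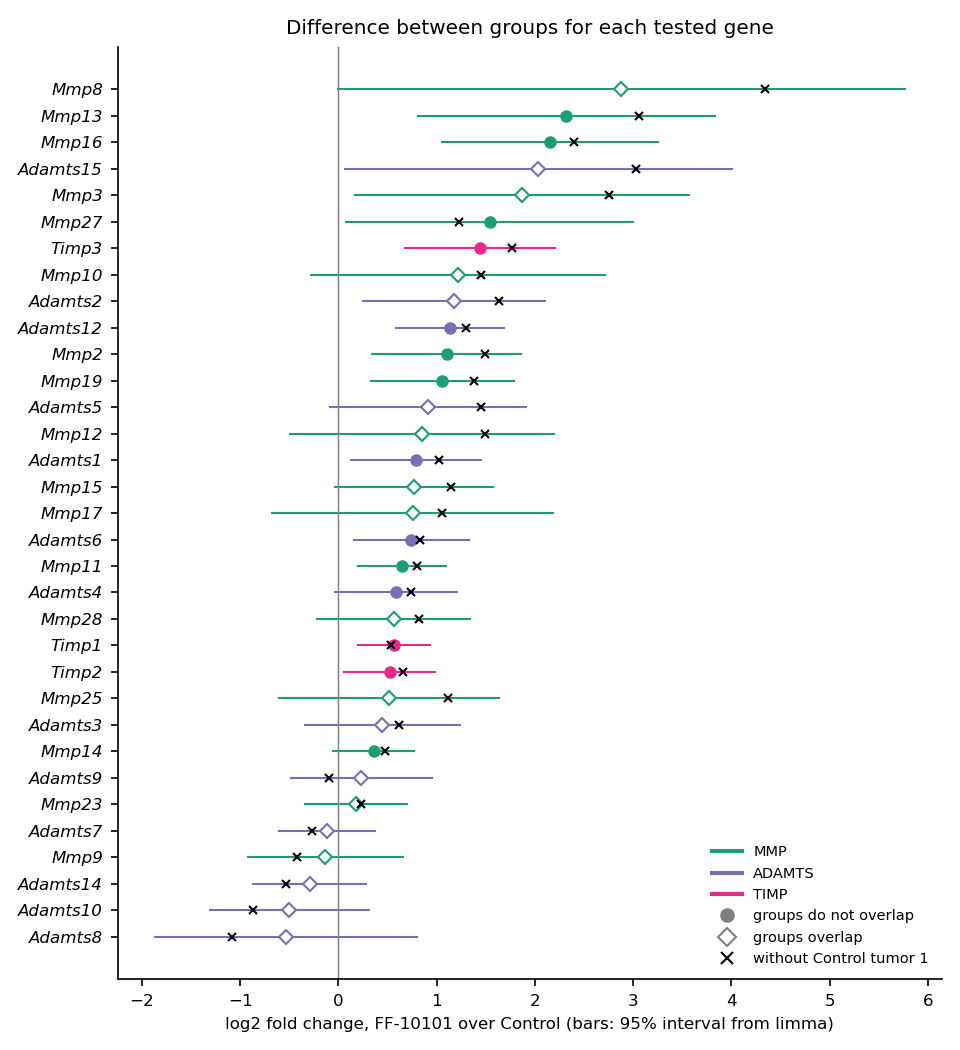
The log2 fold change of each tested gene (horizontal axis, FF-10101 over Control, n = 3 per group), with the 95% interval from limma as a bar and a cross for the fit without Control tumor 1. Filled circles mark the 14 genes whose groups do not overlap, all to the right of 0, and the 5 genes to the left of 0 are Adamts8, Adamts10, Adamts14, Mmp9 and Adamts7.

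Control tumor 1 was more often the highest of the Control tumors in the members than over all genes. It was the highest of the Control tumors for 23 of 33 members and the lowest for 8, where it was highest for 44.6% and lowest for 39.1% of all genes. Its value lay inside the range of the FF-10101 tumors for 15 of 33 members, near the share over all genes (40.9%). Without it, 18 members passed an adjusted p of 0.05 as higher, against 12% of all genes, and 1 as lower (*Adamts10*), against 9.88%. The groups then did not overlap for 23 members as higher (28.4% of all genes) and for 3 as lower (25.7%), and the median log2 fold change was 1.05 against 0.036 over all genes.

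**Figure D2:**
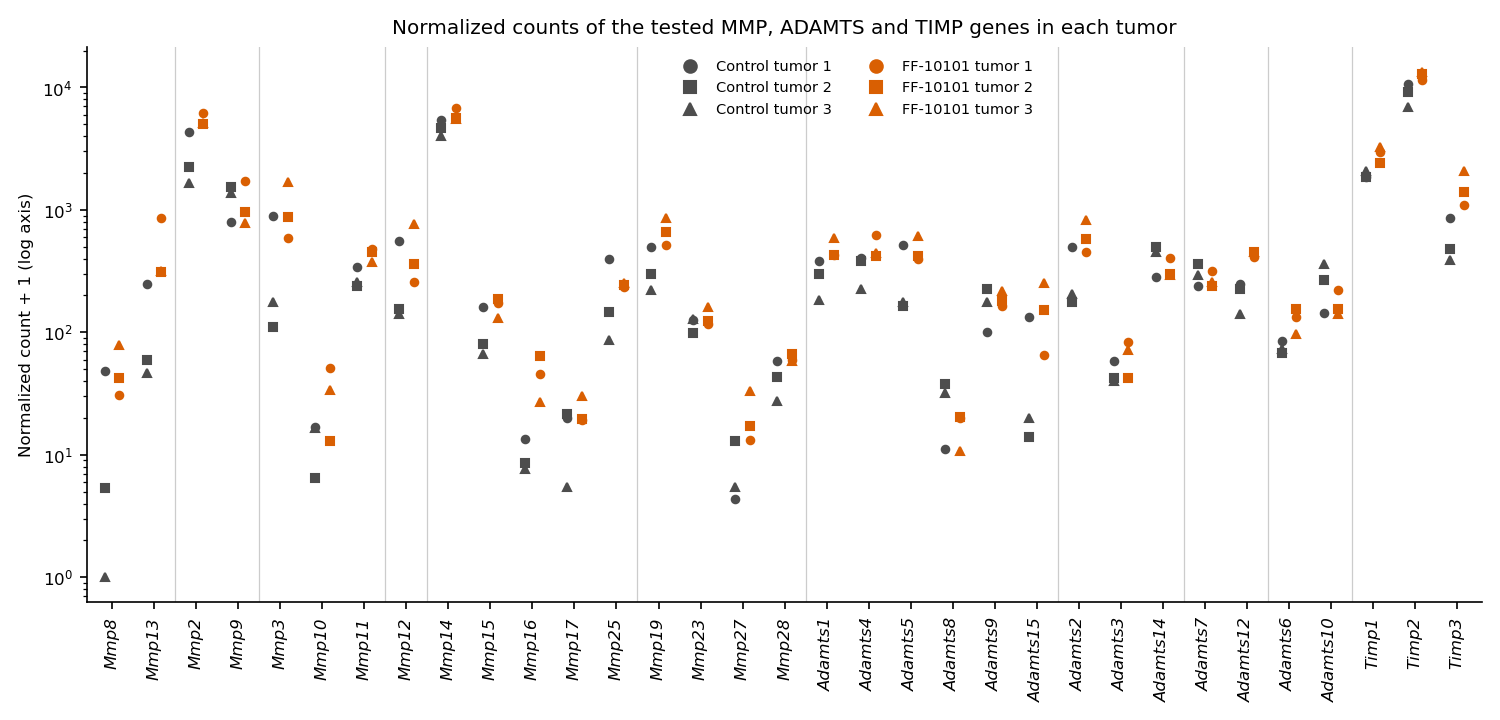
Normalized count + 1 on a log axis for each of the 33 tested genes in each of the 6 tumors, ordered by role from collagenases to TIMPs. Gray symbols are Control and orange symbols are FF-10101 tumors, and for Mmp13, Mmp16 and Timp3 all orange symbols lie above all gray symbols, while the gray circle of Control tumor 1 lies among the orange symbols for Mmp8, Mmp3 and Adamts15.

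Among the collagenases, which cut fibrillar collagens, *Mmp13* had the clearest difference. *Mmp13* (ENSMUSG00000050578) was at 245, 58.7 and 45.5 normalized counts in Control tumors 1, 2 and 3 and at 863, 313 and 314 in FF-10101 tumors 1, 2 and 3. The groups did not overlap, with FF-10101 tumor 1 far above the others and Control tumor 1 the nearest of the Control group. FF-10101 tumor 1 also stood apart in some keratinocyte markers, with *Krt5* at 396 and *Krt14* at 484 against 0 to 13.3 and 0 to 31.1 in the other tumors. *Dsg3* was at 19.9 against 0, but *Krt10*, *Krt1*, *Lor* and *Ivl* of the same list were highest in other tumors. The part of these markers in the *Mmp13* level of FF-10101 tumor 1 was not tested. Without that tumor the log2 fold change of *Mmp13* was 1.83. In all 6 tumors, the means were 117 ± 112 and 496 ± 317 (SD, n = 3), and the log2 fold change was 2.32 (SE 0.66, limma adjusted p = 0.229). *Mmp8* (ENSMUSG00000005800), the collagenase stored in neutrophil granules, was at 47.3, 4.35 and 0 in the Control tumors and at 29.8, 41.3 and 78.2 in the FF-10101 tumors. Control tumor 1 lay between FF-10101 tumors 2 and 3, so the groups overlapped, and the log2 fold change of 2.88 (SE 1.25, limma adjusted p = 0.308) rests on few reads. It was 1.10 on the deposited log2 values, 1.48 with a pseudocount of 10 and 1.55 without Control tumor 3, the tumor with no read. *Mmp1b* had no read in any tumor.

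The gelatinases, which digest denatured collagen and basement membrane, differed from each other. *Mmp2* (ENSMUSG00000031740), a product of mesenchymal cells, was at 4337, 2259 and 1655 in the Control tumors and at 6193, 4988 and 5172 in the FF-10101 tumors. All FF-10101 tumors were above all Control tumors, and Control tumor 1 was again the nearest. The means were 2750.5 ± 1407 and 5451 ± 649 (SD, n = 3), with a log2 fold change of 1.10 (SE 0.33, limma adjusted p = 0.229). *Mmp9*, the gelatinase of neutrophils and macrophages, was at 800.3, 1537 and 1369 in the Control tumors and at 1715, 952 and 779.5 in the FF-10101 tumors. The groups overlapped over nearly their whole range, and the log2 fold change was -0.13 (95% interval -0.92 to 0.66).

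The stromelysins of *Mmp3* and *Mmp10* cut proteoglycans, laminin and other proenzymes. Of the tested genes in their class, only *Mmp11* had groups that did not overlap. *Mmp11* (ENSMUSG00000000901), a stromal stromelysin, was at 341, 239 and 256 in the Control tumors and at 474, 455 and 373 in the FF-10101 tumors, a log2 fold change of 0.65 (SE 0.20, limma adjusted p = 0.229). Its exons share 155 bases with *Chchd10* on the other strand, and the library kit named in the labels does not mark strand, so reads of the shared stretch cannot be told apart. *Mmp3* (ENSMUSG00000043613), or stromelysin-1, was at 890.4, 109.8 and 176 in the Control tumors and at 583, 866 and 1681 in the FF-10101 tumors. Control tumors 2 and 3 were below every FF-10101 tumor, but Control tumor 1 exceeded 2 of them, and the log2 fold change was 1.87 (SE 0.73, limma adjusted p = 0.283). *Mmp10*, or stromelysin-2, was low, at 15.8, 5.43 and 15.5 against 50.4, 11.9 and 32.9, with overlapping groups and a log2 fold change of 1.22 (SE 0.65, limma adjusted p = 0.378). *Mmp7*, the matrilysin of glandular epithelium, had no read in any tumor.

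The macrophage metalloelastase *Mmp12* (ENSMUSG00000049723) was at 556, 153 and 139.8 in the Control tumors and at 257, 359 and 763 in the FF-10101 tumors. Control tumor 1 was the second highest of the 6 tumors, the groups overlapped, and the log2 fold change was 0.85 (SE 0.58, limma adjusted p = 0.487). Without Control tumor 1 it was 1.49 with an adjusted p of 0.0324 in limma, but without FF-10101 tumor 3 it was 0.41 (adjusted p = 0.863) and without Control tumor 3 it was 0.50 (adjusted p = 0.864).

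The membrane-anchored MMPs work at the cell surface, and *Mmp14* (MT1-MMP), which activates the proenzyme of MMP2 there, was their most abundant member. *Mmp14* (ENSMUSG00000000957) was at 5441, 4624 and 3981 in the Control tumors and at 6789.5, 5654 and 5493 in the FF-10101 tumors. The groups did not overlap, but Control tumor 1 and FF-10101 tumor 3 nearly met, and the log2 fold change was 0.36 (SE 0.18, limma adjusted p = 0.354). *Mmp16* (ENSMUSG00000028226, MT3-MMP) was low, at 12.4, 7.61 and 6.66 in the Control tumors and at 44.3, 63.0 and 25.8 in the FF-10101 tumors. Its lowest FF-10101 tumor was above its highest Control tumor, and the log2 fold change was 2.15 (SE 0.48, limma adjusted p = 0.229). The other tested members of this class had overlapping groups, with log2 fold changes of 0.77 for *Mmp15*, 0.76 for *Mmp17* and 0.51 for *Mmp25*, an MMP of leukocytes whose FF-10101 tumors (234, 244 and 253) all lay between Control tumor 1 (394) and Control tumor 2 (147). On leaving out a tumor, *Mmp15* ran from 0.51 to 1.14, *Mmp17* from 0.11 to 1.11 and *Mmp25* from 0.020 to 1.12. *Mmp15* and *Mmp25* passed an adjusted p of 0.05 in limma without Control tumor 1, as did 12% of all genes as higher. *Mmp24*, known from neurons, had no read.

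In the remaining MMPs, *Mmp19* and *Mmp27* had groups that did not overlap. *Mmp19* (ENSMUSG00000025355), a basement membrane protease with a wide tissue distribution, was at 495, 297 and 219.6 in the Control tumors and at 519, 656 and 860.4 in the FF-10101 tumors, a log2 fold change of 1.06 (SE 0.32, limma adjusted p = 0.229). Control tumor 1 and FF-10101 tumor 1 were close, and its exons share 789 bases with *Tmem198b* on the other strand. *Mmp27* (ENSMUSG00000070323) was among the lowest tested members, at 3.38, 12.0 and 4.44 against 12.2, 16.3 and 32.0, with a log2 fold change of 1.54 (SE 0.63, limma adjusted p = 0.294). Control tumor 2 and FF-10101 tumor 1 differed by less than 1 normalized count in that gene, which is within counting error. The groups overlapped for *Mmp23* (log2 fold change 0.18) and *Mmp28* (0.56), and the enamel protease gene *Mmp20* and *Mmp21* had no read.

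Of 22 MMP genes, 9 are consecutive MMP genes of a cluster on chromosome 9, in the order *Mmp13*, *Mmp12*, *Mmp1b*, *Mmp3*, *Mmp10*, *Mmp8*, *Mmp27*, *Mmp20* and *Mmp7*. The 6 tested genes of the cluster all had a log2 fold change above 0 (51.9% of all genes), with a median of 1.70. For 2 of them (*Mmp13* and *Mmp27*) the groups did not overlap, against 10.9% of all genes as higher. Of these, *Mmp27* reached the minimum only through the FF-10101 group, and its nearest tumors across the groups differed by less than 1 normalized count. Without Control tumor 1 the groups did not overlap for 5 of the 6 as higher (28.4% of all genes in that fit), and 4 passed the adjusted p of 0.05 in limma as higher (12% of all genes). The same 3 tumors, Control tumor 1 and FF-10101 tumors 1 and 3, held the highest Control and FF-10101 values of these genes except in *Mmp27*, where Control tumor 2 was the highest Control.

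Promoter sequences of RefSeq (GRCm38.p6, 250 bases before to 50 after an annotated start) were matched for 31 of 45 members and searched on both strands for TGANTCA, the letters of an AP-1 type element (a palindrome, where N is any base), and for TATAAA, the TATA box. These members have 34 windows, since *Mmp7*, *Mmp12* and *Mmp23* have 2 each. TGANTCA occurred in 7 of 34 windows (20.6%), against 7.81% of 32817 windows of all genes, and all 7 lie in the cluster on chromosome 9 (*Mmp13*, *Mmp12*, *Mmp1b*, *Mmp3*, *Mmp10*, *Mmp20* and *Mmp7*). TATAAA occurred in 10 of 34 (29.4%), against 13.6% of the windows. The stretches of the 5 tested cluster genes with the TATA letters are shown so that the positions of both motifs can be compared between neighboring genes, from 100 bases before to 25 after the start, 5′ to 3′, with both motifs in capitals. The windows of *Mmp27*, the other tested gene of the cluster, and of the upstream annotated start of *Mmp12* hold neither motif. *Mmp13* lies at chr9:7272414-7272538, *Mmp3* at chr9:7445722-7445846, *Mmp10* at chr9:7502242-7502366, *Mmp12* (the downstream of its annotated starts) at chr9:7347274-7347398 and *Mmp8* at chr9:7558329-7558453, all on the plus strand.
Mmp13: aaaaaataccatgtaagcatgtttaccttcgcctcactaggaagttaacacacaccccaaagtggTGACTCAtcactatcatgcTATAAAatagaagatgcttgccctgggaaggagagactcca
Mmp3: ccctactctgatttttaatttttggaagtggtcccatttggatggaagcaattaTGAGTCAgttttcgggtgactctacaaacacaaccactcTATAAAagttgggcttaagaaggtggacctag
Mmp10: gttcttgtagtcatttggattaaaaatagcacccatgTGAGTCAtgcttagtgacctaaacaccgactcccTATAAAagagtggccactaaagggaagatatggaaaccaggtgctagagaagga
Mmp12: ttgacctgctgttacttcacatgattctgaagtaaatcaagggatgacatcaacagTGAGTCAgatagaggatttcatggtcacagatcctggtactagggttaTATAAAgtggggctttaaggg
Mmp8: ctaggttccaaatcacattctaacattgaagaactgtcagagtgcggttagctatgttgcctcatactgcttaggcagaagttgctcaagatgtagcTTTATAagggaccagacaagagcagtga

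In *Mmp13*, *Mmp3*, *Mmp10* and *Mmp12* the AP-1 letters begin 35, 46, 63 and 44 bases before the annotated start. The TATA letters follow them, beginning 16, 7 and 29 bases before the start in *Mmp13*, *Mmp3* and *Mmp10* and 4 bases after it in *Mmp12*. *Mmp8* holds the TATA letters on the minus strand only (TTTATA as printed, 3 bases before the start) and no TGANTCA in its window. Among tested members with a window, TGANTCA occurred in 1 of 9 whose groups did not overlap (*Mmp13*) and in 3 of the other 12. A match describes letters in a window, and binding was not measured.

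ADAMTS proteases that cleave proteoglycans had 2 of 6 tested members with groups that did not overlap. *Adamts1* (ENSMUSG00000022893), which cuts versican and is known from inflamed tissue, was at 384, 301 and 182 in the Control tumors and at 430.0, 431 and 586 in the FF-10101 tumors, a log2 fold change of 0.79 (SE 0.29, limma adjusted p = 0.259). FF-10101 tumors 1 and 2 were close to Control tumor 1, and FF-10101 tumor 3 was above the rest. *Adamts4* (ENSMUSG00000006403), an aggrecanase, was at 404, 380.3 and 224 against 622, 420.1 and 444, with a log2 fold change of 0.58 (SE 0.27, limma adjusted p = 0.327). *Adamts15* (ENSMUSG00000033453), a versicanase, was at 132, 13.0 and 18.9 against 64.9, 151 and 253. Control tumor 1 exceeded FF-10101 tumor 1 by far, so the groups overlapped, and the log2 fold change was 2.03 (SE 0.85, limma adjusted p = 0.299). The remaining aggrecanases and versicanases also overlapped, with log2 fold changes of 0.91 for *Adamts5*, 0.23 for *Adamts9* and -0.54 for *Adamts8*.

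The procollagen N-propeptidases remove the amino-terminal propeptides of fibrillar collagens, and none had groups that did not overlap. *Adamts2* (ENSMUSG00000036545) was at 499.8, 177 and 206 in the Control tumors and at 449, 576 and 824 in the FF-10101 tumors. Control tumor 1 lay just above FF-10101 tumor 1, and the log2 fold change was 1.18 (SE 0.40, limma adjusted p = 0.249). *Adamts14* was at 285, 496 and 456 against 401, 299 and 292, with overlapping groups and a log2 fold change of -0.29 (SE 0.25, limma adjusted p = 0.575). *Adamts3*, which also processes the lymphatic factor VEGFC, had a log2 fold change of 0.45.

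The smallest unadjusted p of all members belonged to *Adamts12* (ENSMUSG00000047497), a protease of cartilage oligomeric matrix protein (COMP). It was at 249, 226 and 139.8 in the Control tumors and at 409, 455 and 451 in the FF-10101 tumors. The FF-10101 tumors lay close together and well above the highest Control tumor. The means were 205 ± 57.5 and 438 ± 25.1 (SD, n = 3), the log2 fold change was 1.13 (SE 0.24) and the unadjusted p was 0.0014, with a limma adjusted p of 0.229. *Adamts7*, its close relative with the same substrate, was at 236, 359 and 292 against 315, 239 and 257. Those groups overlapped, with a log2 fold change of -0.12 (SE 0.21, limma adjusted p = 0.803) and a sign opposite to that of *Adamts12*.

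Of the remaining ADAMTS genes, *Adamts6* (ENSMUSG00000046169) was at 83.3, 67.4 and 72.1 in the Control tumors and at 132, 153 and 95.1 in the FF-10101 tumors, a log2 fold change of 0.74 (SE 0.25, limma adjusted p = 0.249). Its groups did not overlap. *Adamts10*, a protease tied to fibrillin microfibrils, was at 143, 268 and 358 against 222, 153 and 141. Control tumor 1 lay among the lowest FF-10101 tumors here, the groups overlapped, and the log2 fold change was -0.50 (SE 0.35, limma adjusted p = 0.498). Without Control tumor 1 it was -0.87 with an adjusted p of 0.0376, the only member called lower in that fit, while without Control tumor 3 it was -0.21 (limma adjusted p = 0.897). *Adamts13*, which cleaves von Willebrand factor and is made in the liver, had 1 read in all, and *Adamts16*, *Adamts17*, *Adamts18*, *Adamts19* and *Adamts20* had at most 10 reads in a tumor.

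All 3 tested TIMP genes had groups that did not overlap. *Timp3* (ENSMUSG00000020044), the inhibitor bound to matrix, was at 858, 475 and 390.5 in the Control tumors and at 1105, 1399 and 2063 in the FF-10101 tumors. Every FF-10101 tumor was higher, and Control tumor 1 was the highest of its group. The means were 574 ± 249 and 1523 ± 491 (SD, n = 3), with a log2 fold change of 1.44 (SE 0.33, limma adjusted p = 0.229). *Timp1* (ENSMUSG00000001131), a soluble inhibitor known to be induced in inflammation, was at 1848, 1870.2 and 2074 against 2956, 2412 and 3238. Here Control tumor 1 was the lowest of its group, the Control tumors lay close together, and the log2 fold change was 0.56 (SE 0.16, limma adjusted p = 0.229).

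*Timp2* (ENSMUSG00000017466), which inhibits MMPs and also forms the complex through which MMP14 activates MMP2, was at 10652, 9112 and 6967 in the Control tumors and at 11595, 12929.8 and 13312 in the FF-10101 tumors. Control tumor 1 and FF-10101 tumor 1 were the neighbors across the groups, and the log2 fold change was 0.52 (SE 0.20, limma adjusted p = 0.277). *Timp4*, the inhibitor of heart and fat tissue, had at most 3 reads in a tumor. Exons of *Timp3* share 1733 bases with *Syn3* on the other strand, which had 25 reads over all tumors.

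Leaving out Control tumor 1 changed the call of many of these members. Of the 33 tested members, 18 then passed the adjusted p of 0.05 in limma as higher, against 12% of all genes. Among them were 10 of the 14 whose groups did not overlap (*Mmp13*, *Mmp2*, *Mmp11*, *Mmp16*, *Mmp19*, *Adamts1*, *Adamts12*, *Timp1*, *Timp2* and *Timp3*). The others of the 14, *Mmp14*, *Mmp27*, *Adamts4* and *Adamts6*, did not pass. The 14 were picked by their separation in these same tumors, so their share of calls cannot be set against that of all genes. The lowest adjusted p in that fit was 0.00187, for *Mmp2*, whose log2 fold change was then 1.49. Of the members with overlapping groups, 9 passed in that fit, among them *Mmp8* (log2 fold change 4.34), *Mmp3* (2.76) and *Adamts15* (3.03). These values were lower when another Control tumor was left out, at 1.55 for *Mmp8* without Control tumor 3 and at 1.25 for *Mmp3* and 1.41 for *Adamts15* without Control tumor 2. Leaving out any other tumor gave 0 called members.

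Levels of different genes were compared per length, as reads per base of the longest transcript, scaled to the same total over all genes in each tumor (1000000 units). On this scale of levels the highest members were *Timp2* (471 ± 104 in Control, 718 ± 53.4 in FF-10101), *Timp1* (427 ± 23.7 and 685 ± 97.4), *Mmp14* (283 ± 46.6 and 389.6 ± 44.7) and *Mmp2* (174 ± 86.2 and 374 ± 42.8; SD, n = 3). Next came *Mmp3*, *Mmp9*, *Timp3*, *Mmp11*, *Mmp19* and *Mmp13*, in the order of the mean over both groups. This order differed by group: *Mmp9* lay above *Mmp3* in the Control means, and *Mmp13* ranked 18 in Control and 10 in FF-10101. Compared within each tumor, *Timp1* lay above *Mmp14*, *Mmp14* above *Mmp2* and *Mmp2* above *Mmp3* in 6 of 6 tumors, while *Timp2* lay above *Timp1* and *Mmp3* above *Mmp9* in 3 of 6. Among the ADAMTS genes, *Adamts4* was at 15.1 ± 4.75 in Control and 23.8 ± 5.20 in FF-10101 and *Adamts14* at 15.6 ± 4.75 and 13.4 ± 2.44 (SD, n = 3), so the highest gene differed between the groups. The order depends on the transcript length used: with the median transcript, *Mmp14* was the highest member (572 ± 83.1 and 776 ± 82.8), above *Timp2* (384 ± 77.4 and 577 ± 47.0; SD, n = 3) in 6 of 6 tumors, and *Adamts2* was the highest ADAMTS gene in both groups (24.0 ± 13.7 and 54.1 ± 16.9). *Mmp14* and *Mmp2* together held 60.9% to 69.8% of the summed MMP level in a tumor with the longest and 72.2% to 78.9% with the median transcript.

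With the longest transcript, the summed level of each family was higher in every FF-10101 tumor than in every Control tumor. MMP genes summed to 880.1, 644 and 500.7 units in the Control tumors and to 1252, 1058 and 1168 in the FF-10101 tumors. TIMP genes summed to 984, 972 and 810.2 against 1409.7, 1384 and 1621, and ADAMTS genes to 98.5, 104 and 81.2 against 135, 123 and 145. The sum of MMP genes was 1.72 times, of TIMP genes 1.60 times and of ADAMTS genes 1.42 times the Control mean. Control tumor 1 was the highest Control for the MMP and TIMP sums but not for the ADAMTS sum, where it was the highest only with the median transcript length.

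The proportion of inhibitor to protease RNA did not separate the groups. The ratio of the summed TIMP to the summed MMP level was 1.12, 1.51 and 1.62 in the Control tumors and 1.13, 1.31 and 1.39 in the FF-10101 tumors. The groups overlapped, with means of 1.41 ± 0.263 and 1.27 ± 0.134 (SD, n = 3). The ratio depends on the transcript length used: with the median instead of the longest transcript of each gene it was 0.575 ± 0.0523 and 0.586 ± 0.0959, so whether TIMP RNA exceeds MMP RNA cannot be read from it. Within the TIMP genes, *Timp3* was 3.53%, 2.15% and 1.92% of the sum in the Control tumors and 3.49%, 4.55% and 5.68% in the FF-10101 tumors, with Control tumor 1 just above FF-10101 tumor 1. With the median transcript these shares ran from 3.35% to 5.74% in the Control tumors and from 5.92% to 9.44% in the FF-10101 tumors, and Control tumor 1 lay just below FF-10101 tumor 1, so whether the groups overlap in this share also depends on the length.

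**Figure D3:**
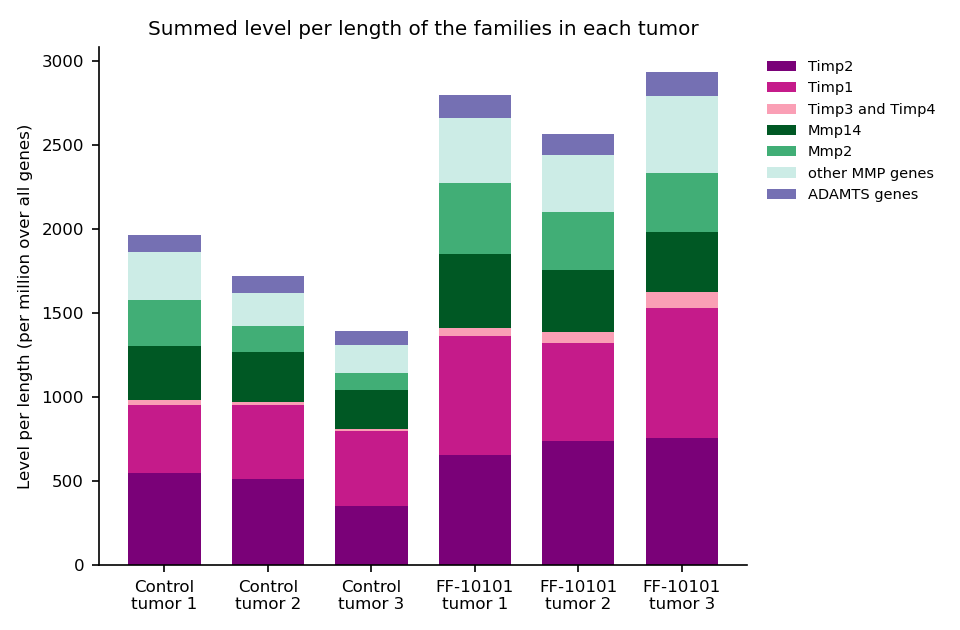
Stacked bars of the level per length (units of which all genes sum to 1000000, longest transcript) of the TIMP, MMP and ADAMTS genes in each of the 6 tumors. The bars total 1392 to 1962 in the Control tumors and 2565 to 2934 in the FF-10101 tumors, and Timp2, Timp1, Mmp14 and Mmp2 make up most of each bar.

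Other genes that act on the same proteases were counted in 6 lists, of which 45 of 57 genes were tested, 0 passed an adjusted p of 0.05 in limma, and 8 had non-overlapping groups as higher and 2 as lower (10.9% and 9.37% of all genes tested). At an unadjusted p under 0.05, 12 of these genes were higher and 1 lower (8.77% and 7.49% of all genes). Without Control tumor 1, 15 of them passed an adjusted p of 0.05 in limma as higher and 1 (*Plau*) as lower, against 12% and 9.88% of all genes. In the plasminogen activation system, which produces the plasmin that activates proMMPs, 1 of 7 was higher and 1 lower by non-overlap. *Plau*, the gene of urokinase, was at 1251, 1304 and 1243 in the Control tumors and at 759.9, 493 and 560.0 in the FF-10101 tumors, a log2 fold change of -1.09 (SE 0.18, limma adjusted p = 0.184). The Control tumors were nearly alike, and all FF-10101 tumors lay far below them. *Serpine2*, a serpin that inhibits urokinase and thrombin, was higher, with means of 151 ± 104 and 409.8 ± 113 (SD, n = 3) and a log2 fold change of 1.63.

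Among regulators and activators of MMPs, 2 of 9 tested genes had non-overlapping groups, both higher. They were *Reck*, a membrane-anchored MMP inhibitor (48.4 ± 7.74 and 107 ± 41.8, log2 fold change 1.06), and *Pcsk5*, a proprotein convertase (75.7 ± 73.5 and 209 ± 20.0, 1.90). The convertase gene *Furin* (0.25) and *Bsg* (0.08), whose product EMMPRIN induces MMPs, had overlapping groups. Of 7 tested ADAM sheddases, *Adam12* was higher by non-overlap (293 ± 41.6 and 605 ± 58.6, log2 fold change 1.05, limma adjusted p = 0.175) and *Adam15* lower (-0.32). None of 4 tested ADAMTS-like genes, which lack a protease domain, had non-overlapping groups. *Adamtsl1* had a log2 fold change of 2.14 (limma adjusted p = 0.253). Without Control tumor 1, 2 of the 4 passed in limma as higher (12% of all genes), *Adamtsl1* (2.90, adjusted p = 0.0121) and *Adamtsl4* (1.46, adjusted p = 0.00388).

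On the substrate side, 3 of 5 tested proteoglycan and COMP genes had non-overlapping groups, all higher. The decorin gene *Dcn* had means of 3331 ± 2226 and 8064 ± 2035 (SD, n = 3; log2 fold change 1.44) and the lumican gene *Lum* of 310.0 ± 182 and 868 ± 285 (1.57), and *Fmod* was low (2.75 on few reads). Versican (*Vcan*), the substrate of several ADAMTS members, had overlapping groups and a log2 fold change of 0.27, and *Acan* and *Comp* were under the minimum. In matrix cross-linking, 1 of 13 had non-overlapping groups, the procollagen C-proteinase gene *Bmp1* (0.28, unadjusted p = 0.132). The only gene of that list with an unadjusted p under 0.05 was *Lox*, the gene of lysyl oxidase, at 6800.1, 2296 and 1523 in the Control tumors and at 6209.9, 7695 and 11514 in the FF-10101 tumors. Control tumor 1 exceeded FF-10101 tumor 1, and the log2 fold change was 1.51 (limma adjusted p = 0.249), or 2.13 (adjusted p = 0.00284) without Control tumor 1.

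Markers of cell types that use these genes also had separate ranges in the groups for some lists. Of 9 fibroblast markers, 5 had non-overlapping groups as higher (*Pdgfra*, *Dpt*, *Fap*, *Postn* and *Cd34*), and their summed level per length was 1070 to 1780 in the Control and 2435 to 2676 in the FF-10101 tumors. Of 9 mesenchymal or fibrosarcoma markers, 3 were higher (*S100a4*, *Sparc* and *Prrx1*), with sums of 7857 to 14772 and 14854 to 18974. Of 9 macrophage markers, 4 were lower by the same rule (*Adgre1*, *C1qa*, *C1qb* and *C1qc*), with sums of 5304 to 9075 and 3610 to 4999.

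Of 5 tested neutrophil markers, 3 had non-overlapping groups as higher (*S100a8*, *S100a9* and *Cxcr2*), and the list summed to 131 to 206 in the Control and 336 to 549 in the FF-10101 tumors. The other 5 markers of the list were under the minimum, beside the low counts of *Mmp8*: *Ly6g* and *Camp* had 1 read each over all tumors, *Elane* 3, *Mpo* 19 and *Ltf* 36. All 5 mast cell markers were higher (28.6 to 38.9 and 82.8 to 260), and so was *Tek* among 7 endothelial markers (102 to 316 and 344 to 384). Of these 7, 6 were higher at an unadjusted p under 0.05 in limma, and all 7 passed an adjusted p of 0.05 as higher without Control tumor 1. Markers of skeletal muscle, keratinocytes, adipocytes, T cells, pericytes and smooth muscle had 0 genes with non-overlapping groups. In the list of pericytes and smooth muscle, *Rgs5* (log2 fold change 1.31) and *Myh11* (2.05) were higher and *Cnn1* (-1.76) lower at an unadjusted p under 0.05. Without Control tumor 1, 6 of its 7 markers passed an adjusted p of 0.05 in limma, 3 as higher and 3 as lower, and 1 T cell marker passed as higher. Of 71 tested markers, 0 passed an adjusted p of 0.05 in limma, with 25 higher and 5 lower at an unadjusted p under 0.05 (8.77% and 7.49% of all genes). Their groups did not overlap for 17 as higher and 4 as lower (10.9% and 9.37% of all genes). Without Control tumor 1, 28 markers passed the adjusted p of 0.05 as higher and 5 as lower (12% and 9.88% of all genes), among them 5 fibroblast, 3 mesenchymal or fibrosarcoma, 4 neutrophil and 4 mast cell markers as higher, and 1 macrophage marker as higher and 2 as lower. The keratinocyte list summed to 103 in FF-10101 tumor 1 and to 2.37 to 18.6 in the other tumors, though *Krt10*, *Krt1*, *Lor* and *Ivl* were highest in other tumors. The part of these cell types in the levels of the MMP, ADAMTS and TIMP genes was not tested.

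**Figure D4:**
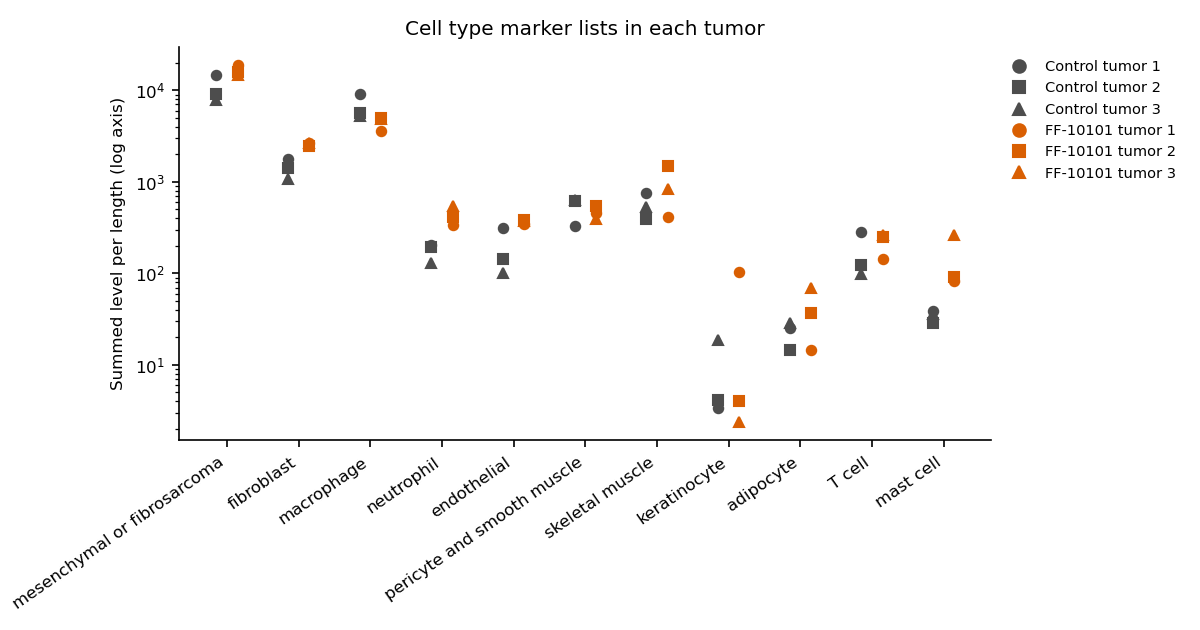
Summed level per length (log axis, units of which all genes sum to 1000000) of 11 cell type marker lists in each of the 6 tumors, Control in gray and FF-10101 in orange. The fibroblast, neutrophil and mast cell sums of all FF-10101 tumors lie above those of all Control tumors, the macrophage sums lie below, and the skeletal muscle, keratinocyte and T cell sums overlap.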

How the data were processed

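Per the study's methods, the authors trimmed reads with fastp (version 0.19.5), quantified transcripts with Salmon (version 1.5.1) on GENCODE vM27 and used DESeq2 (version 1.22.1). The deposited table holds log2 values for each tumor separately, and their form is that of the variance-stabilizing transformation offered by the authors' tool DESeq2. The inverse gave whole reads for 100% of 325854 values (largest gap 4.16e-09) and 1 size factor per tumor. Normalized counts had been planned for, so they were recovered first. A count of 0 allows up to 3 reads, for counting error only.

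Symbols and transcript lengths came from GENCODE vM21 (51484 identifiers matched by the part without version). That annotation is on another build than the authors' files, so gene coordinates are given only for RefSeq promoters, on GRCm38.p6. *Mmp1a*, not annotated as protein-coding there, is no member. Salmon assigns shared reads by estimation, and overlapping exons were listed from the annotation, copies of sequence with BLAST (version 2.17.0).

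R (version 4.3.3) and limma (version 3.58.1; lmFit, eBayes with a trend, group as the sole term) were run on log2(normalized count + 1) over genes whose mean reached 10, adjusted by the Benjamini-Hochberg method, and tested on simulated data. An exact two-sided permutation test was used for single genes. Members, roles, lists and tests were chosen with earlier results of these data known. Values per tumor were given for members whose groups do not overlap, members with an absolute log2 fold change of at least 1 and the member with the highest level per length in each role. From each list, non-overlapping genes were named, at most 5, with values per tumor for *Plau* alone (*Mmp9*, *Mmp25* and the overlapping list genes, *Lox* with values per tumor, were added after their values were seen). Alternatives were pseudocounts of 0.5 and 10, no minimum, a minimum of 50, quantile normalization, 75th percentile scaling, the deposited log2 values, limma-voom on the reads, no trend, a replicate block, array weights, median transcript lengths and each tumor left out in turn.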

Additional observations from a re-analysis of the deposited data

How the results depend on the processing

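Under pseudocounts, minimum counts, scalings, the deposited log2 values, no trend and limma-voom, 0 members passed an adjusted p of 0.05. Array weights called 28 members (and 59.9% of all genes). The weights were 0.139, 5.39 and 0.475 in Control tumors 1, 2 and 3. They were 0.406, 8.08 and 0.859 in FF-10101 tumors 1, 2 and 3. That fit therefore rests mainly on 1 tumor per group and does not act only on Control tumor 1. Leaving out each tumor in turn called 0 to 19, with all 19 called in the fit without Control tumor 1 (21.9% of all genes). Members with groups that do not overlap ranged from 14 to 26 on leaving out a tumor. The 26 arose without Control tumor 1, with 23 higher and 3 lower, against 28.4% and 25.7% of all genes in that fit. The median log2 fold change of the ADAMTS genes was 0.45 with no minimum and 0.23 with array weights, and 0.34 to 0.74 on leaving out a tumor, and that of the TIMP genes was 0.81 with no minimum. With median transcript lengths the summed ADAMTS level was 1.67 times the Control mean. Small differences turned sign: *Adamts9* was at -0.24 with array weights and at -0.10 to 0.49 on leaving out a tumor, *Mmp9* at -0.47 to 0.10 and *Adamts7* at -0.27 to 0.032. No other tested member changed direction in these settings. The cause of these shifts was not tested.

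Replicate numbers are shared by both groups, but same-numbered tumors did not deviate together (correlations of -0.29, -0.040 and -0.28), so they share only a number. With the replicate block, 0 members and 1 gene in all passed. Members under the minimum, with at most 10 reads in a tumor, allow no statement on a difference at this depth.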
